A study of Mus musculus with 4 samples.

Results

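The E2F transcription factors and the pocket proteins were described in brain microglia of 20 mice, on UMI counts (unique molecular identifiers, which count captured mRNA molecules) summed over the cells of each mouse. The members were taken by gene symbol and were 9 of the 19737 genes of the deposited matrix, namely E2f1, E2f2, E2f3, E2f4, E2f7, E2f8, Rb1, Rbl1 and Rbl2. E2F proteins bind the promoters of genes for DNA replication and division, and the pocket proteins pRB (Rb1), p107 (Rbl1) and p130 (Rbl2) hold them in check in resting cells until cyclin-dependent kinases phosphorylate the pocket. E2F1, E2F2 and E2F3 are the activators, E2F4 works mainly as a repressor together with p107 or p130, and E2F7 and E2F8 are atypical repressors that bind DNA without a pocket protein and are themselves E2F targets. Microglia, the resident macrophages of the brain, divide seldom in the healthy adult and more readily after activation, and TREM2 is a receptor on them that favours survival and proliferation.

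The mice fell into 5 groups of 4. Of the WT;TfRmu/hu mice 4 received ATV:ISO and 4 ATV:4D9. The AppSAA;TfRmu/hu mice received ATV:ISO, 4D9 or ATV:4D9, and every antibody was given as a dose of 10 mg/kg, with sampling after 24 h. 4D9 is an antibody that activates mouse TREM2, ATV is an antibody transport vehicle, an Fc domain engineered to bind the human transferrin receptor and so to cross the blood-brain barrier, and ATV:ISO is an isotype control with the same Fc. Every mouse carried the TfRmu/hu knock-in, a transferrin receptor with a human part that the Fc can bind, and AppSAA is a knock-in of App with amyloid-forming mutations, so that no group had an unmodified receptor. The deposit names the isotype arm ATV-DNP02. Reading it as ATV:ISO is an inference without a deposited statement behind it. The entry for WT and AppSAA mice with TfRmu/hu lists males aged 8 months, a separate entry for WT;TfRmu/hu mice lists both sexes at 2 to 8 months, and 1 of the WT mice on ATV:ISO has female as its recorded sex, so the age of the WT mice is not settled by these entries. Live CD11b+ cells were sorted, and another text names CD45 as well, and the tissue is given as cortex in 1 place and as cortex and hippocampus in another.

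In all, 74758 cells were analysed, 2193 to 6126 for each mouse, with 17150296 to 102446549 UMIs summed for each mouse. The cells came in 4 pools of 5 mice, 1 from each group, and 543 of 74212 distinct barcodes (0.732%) occurred in more than 1 pool. The median number of UMIs per cell, averaged over the mice of a group, was 7566 (WT, ATV:ISO), 15338 (WT, ATV:4D9), 9338 (AppSAA, ATV:ISO), 9741 (AppSAA, 4D9) and 15523 (AppSAA, ATV:4D9). Levels are therefore given as CPM, the UMIs of a gene per 1000000 UMIs of the same mouse, a measure relative to all other RNA, and UMIs per 1000 cells are added where the distinction matters. The microglial markers Cx3cr1, Csf1r, P2ry12, Tmem119 and Sall1 summed to between 11674 and 13393 CPM in WT mice given ATV:ISO and 6068 and 7275 CPM in those given ATV:4D9, and in AppSAA mice to between 6810 and 8837 CPM with ATV:ISO, 7059 and 8427 CPM with 4D9 and 4778 and 6432 CPM with ATV:4D9. P2ry12 with ATV:4D9 lay at 920 to 1203 CPM against 2818 to 3043 CPM with ATV:ISO in WT mice and 461 to 846 CPM against 1406 to 1829 CPM in AppSAA mice, whereas Tmem119 lay at 1014 to 1102 CPM against 1264 to 1519 CPM in WT mice and overlapped in AppSAA mice, at 744 to 838 CPM against 575 to 848 CPM. The 3 markers of T and NK cells summed to at most 0.512 CPM. The 3 monocyte markers, Ly6c2, Ccr2 and Plac8, summed to between 9.28 and 12.8 CPM in AppSAA mice given ATV:4D9, against 3.74 to 8.73 CPM in AppSAA mice given ATV:ISO, and to between 5.55 and 6.69 CPM against 4.39 to 7.77 CPM in the corresponding WT mice. With ATV:4D9 in WT mice, the 3 endothelial markers summed to between 7.67 and 9.70 CPM against 15.9 to 21.3 CPM with ATV:ISO, the 7 markers of neurons and glia to between 15.6 and 27.6 CPM against 29.0 to 42.1 CPM and the 3 B cell markers to between 16.6 and 25.8 CPM against 26.9 to 30.5 CPM, none of them overlapping. In AppSAA mice the same 3 lists overlapped between ATV:4D9 and ATV:ISO, at 3.81 to 6.76 CPM against 6.48 to 10.55 CPM, 16.2 to 39.5 CPM against 31.5 to 45.3 CPM and 15.6 to 20.3 CPM against 17.3 to 20.4 CPM. Over all mice, 1 gene held most of the UMIs of each of these 3 lists (Pecam1, Mbp and Cd79b), while Cldn5, Ly6c1, Cd79a and Ms4a1, which define endothelium and B cells, reached at most 0.416, 0.377, 0.504 and 0.197 CPM in any mouse. The lists of border macrophages and neutrophils overlapped between these groups in each genotype, and Ly6g, which defines neutrophils, reached at most 0.0968 CPM. Their part in the results was not tested.

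ATV:4D9 was compared with ATV:ISO in each genotype to ask how microglial expression differs after the antibody with the transport vehicle. In WT mice 6 of the 9 members were higher after ATV:4D9 (E2f1, E2f2, E2f3, E2f7, E2f8 and Rbl1), Rb1 and Rbl2 were lower, and E2f4 did not pass the test (edgeR quasi-likelihood test, Benjamini-Hochberg adjusted p below 0.05 over all 14058 genes tested). Of all genes tested, 63.3% were called in this comparison, 30.8% as higher and 32.5% as lower. The median log2 fold change of the members was 1.98, against -0.05 over all genes. In AppSAA mice 7 members were higher, E2f4 now among them, Rbl2 was lower and Rb1 did not pass the test, beside 55.1% of all genes (27.9% higher and 27.1% lower), with a median of 1.72 against -0.03. The groups did not overlap for 8 members in each genotype, beside 57% of all genes in WT and 47.7% in AppSAA mice. All 9 members passed the filter on low counts.

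In such sums, more cells of a kind and more RNA per cell cannot be told apart, and the make-up of the sorted cells differed between the groups. Deposited coarse cluster 4 (clustering at resolution 0.2, 6 clusters), in which the mean levels of E2f2, E2f7, E2f8 and Rbl1 were highest, held 0.351% ± 0.0872 (SD, n = 4) of the cells of WT mice given ATV:ISO and 39.95% ± 4.44 of those given ATV:4D9. In AppSAA mice it held 0.949% ± 0.19 with ATV:ISO, 1.27% ± 0.311 with 4D9 and 22.4% ± 3.33 with ATV:4D9. Coarse cluster 2 went from 1.35% ± 0.23 with ATV:ISO to 47.8% ± 3.48 with ATV:4D9 in WT mice and from 2.34% ± 0.392 to 35.4% ± 4.54 in AppSAA mice, and coarse cluster 0 from 60.4% ± 2.6 to 3.11% ± 1.01 and from 30.8% ± 1.92 to 2.52% ± 1.84. The levels by cluster are given after the group comparisons.

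**Figure D1:**
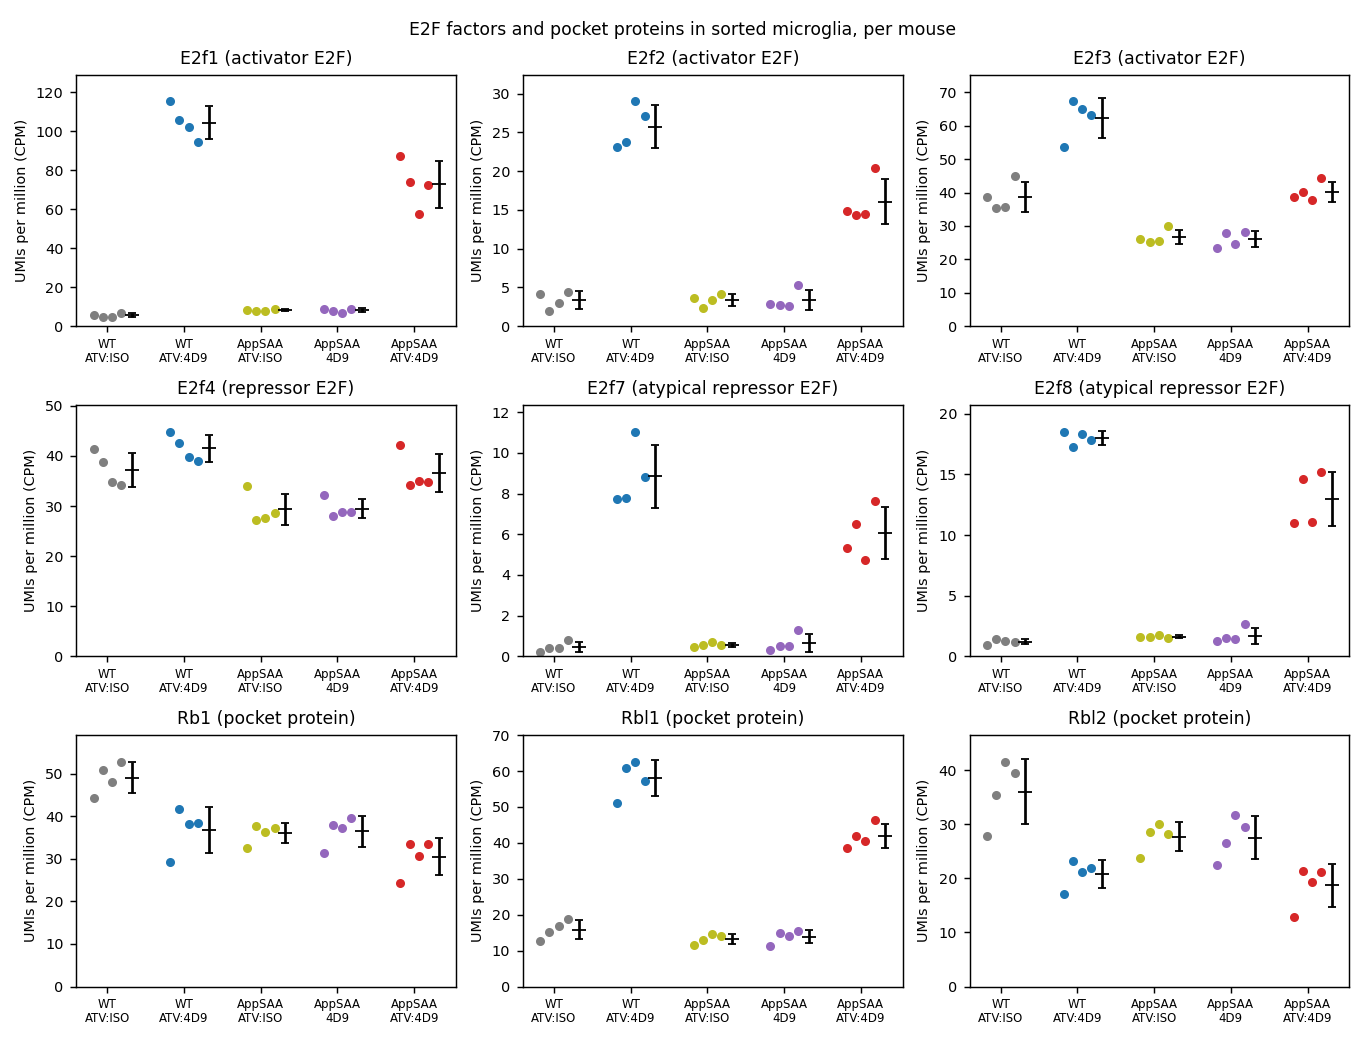
Level of each member in CPM (vertical axis) for every mouse, by group (horizontal axis), with the mean and SD of 4 mice as a black bar. E2f1, E2f2, E2f7, E2f8 and Rbl1 stood apart in the ATV:4D9 groups of both genotypes, E2f3 and E2f4 differed less, and Rb1 and Rbl2 were lowest on average in AppSAA mice given ATV:4D9.

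Among the activators, E2f1, which drives entry into S phase, differed most. E2f1 stood at 5.66, 4.74, 4.86 and 6.99 CPM in WT mice given ATV:ISO and at 115, 106, 102 and 94.5 CPM in those given ATV:4D9. In AppSAA mice it stood at 8.52, 7.52, 7.92 and 8.93 CPM with ATV:ISO, at 8.86, 7.60, 6.78 and 8.90 CPM with 4D9 and at 87.2, 74.0, 57.7 and 72.6 CPM with ATV:4D9. Every mouse given ATV:4D9 lay far above every other mouse, and the 2 ATV:4D9 groups did not overlap each other, with WT higher. Of all genes, 22.2% did not overlap between these 2 groups, and 40% between the genotypes with ATV:ISO. These shares stand beside each such separation of genotypes given below for other members. The ranges are of CPM without the scaling used in the fits, and the genotypes are tested further below. The log2 fold change was 4.34 (SE 0.167, edgeR adjusted p = 1.41e-14) in WT and 3.23 (SE 0.152, edgeR adjusted p = 6.39e-13) in AppSAA mice. The difference rested on 487 UMIs of E2f1 summed over the 4 WT mice given ATV:ISO and 27763 over the 4 given ATV:4D9.

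E2f2, an activator of the same subgroup, was measured at 4.20, 1.95, 2.97 and 4.45 CPM in WT mice given ATV:ISO and at 23.2, 23.7, 29.0 and 27.2 CPM after ATV:4D9. In AppSAA mice its level was 3.66, 2.39, 3.42 and 4.20 CPM with ATV:ISO, 2.91, 2.74, 2.58 and 5.26 CPM with 4D9 and 14.9, 14.4, 14.5 and 20.4 CPM with ATV:4D9. The 3 groups without ATV:4D9 overlapped each other, both ATV:4D9 groups lay above them, and the WT mice given ATV:4D9 lay above the AppSAA mice given it. E2f2 rose by 3.03 on the log2 scale (SE 0.226, edgeR adjusted p = 5.1e-10) in WT and 2.30 (SE 0.209, edgeR adjusted p = 1.57e-08) in AppSAA mice.

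E2f3, the activator with the smallest change, was at 38.7, 35.3, 35.6 and 44.8 CPM in WT mice given ATV:ISO and at 53.7, 67.3, 64.9 and 63.2 CPM with ATV:4D9. In AppSAA mice E2f3 was at 26.1, 25.1, 25.6 and 29.9 CPM with ATV:ISO, 23.3, 27.9, 24.7 and 28.2 CPM with 4D9 and 38.6, 40.2, 37.7 and 44.5 CPM with ATV:4D9. The order differed from that of E2f1, since WT mice given ATV:ISO overlapped AppSAA mice given ATV:4D9 and lay above the other AppSAA mice. The rise was 0.80 on the log2 scale (SE 0.083, edgeR adjusted p = 6.42e-08) in WT and 0.67 (SE 0.082, edgeR adjusted p = 1.15e-06) in AppSAA mice.

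The promoters of the activators are shown because E2F genes are themselves held to be under E2F control, and their start sites can be read for E2F words. Sequences were taken from RefSeq (GRCm38.p6, the build called mm10), from 250 bases before to 50 after the start of a transcript, 5′ to 3′ on the gene's strand, with an E2F word in capitals. The words searched were TTTCCCGC, TTTGGCGC, TTTCGCGC and TTTGCCGC on both strands, and 2.26% of 32851 windows of this length held at least 1 of them. Windows were found for 7 members, not for E2f4 and Rb1, and the word occurred in 4 of 9 windows, those of E2f2, E2f3, E2f7 and Rbl1. The E2f2 window (chr4:136172024-136172323, plus strand) held it 39 bases after the start of the RefSeq transcript, and that of E2f3 (chr13:29986014-29986313, minus strand) 11 bases before the start. The GENCODE annotation draws E2f2 from chr4:136172394, so the whole E2f2 window lies before the gene as drawn there.
E2f2: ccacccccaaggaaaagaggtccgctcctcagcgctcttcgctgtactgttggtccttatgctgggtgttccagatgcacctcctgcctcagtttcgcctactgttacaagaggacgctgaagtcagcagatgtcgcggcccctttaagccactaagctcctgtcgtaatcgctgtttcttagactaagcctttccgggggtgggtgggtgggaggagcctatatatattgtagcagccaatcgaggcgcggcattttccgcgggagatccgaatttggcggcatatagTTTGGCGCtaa
E2f3: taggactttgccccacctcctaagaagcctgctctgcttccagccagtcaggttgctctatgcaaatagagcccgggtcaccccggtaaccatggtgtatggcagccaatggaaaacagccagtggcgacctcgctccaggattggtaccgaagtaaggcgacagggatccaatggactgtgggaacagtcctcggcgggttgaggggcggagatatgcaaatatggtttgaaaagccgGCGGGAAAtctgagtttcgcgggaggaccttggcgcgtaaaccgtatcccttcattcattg
A match to these letters is a description of the window and not a site shown to be bound. A second window of E2f2 and of E2f3, and the window of E2f1, which begins inside the gene as the GENCODE annotation draws it (chr2:154559407-154569892, minus strand), held none of these words.

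E2f4, the repressor that joins p107 or p130 in resting cells, differed little. It was at 41.3, 38.7, 34.9 and 34.1 CPM in WT mice given ATV:ISO and at 44.8, 42.6, 39.8 and 38.9 CPM with ATV:4D9, ranges that overlapped. In AppSAA mice E2f4 was at 33.9, 27.2, 27.6 and 28.6 CPM with ATV:ISO, at 32.3, 27.9, 28.8 and 28.8 CPM with 4D9 and at 42.2, 34.2, 35.0 and 34.8 CPM with ATV:4D9, so that the ATV:4D9 mice lay above the rest by a small margin. The log2 fold change was 0.40 (SE 0.122, edgeR adjusted p = 0.00954) in AppSAA mice and 0.27 in WT mice (95% interval 0.01 to 0.53, edgeR adjusted p = 0.0605). When the fit held the pool as a block, the WT difference passed the test at the same size (0.27, edgeR adjusted p = 2.42e-05), and it also passed with RLE size factors, without the filter, with DESeq2 and with cells of 1000 to 25000 UMIs. With the block 74.6% of all genes were called in this comparison. In every group the mouse of pool 1 had the highest E2f4 level. Without pool 1 of the AppSAA mice given ATV:4D9, the AppSAA difference fell to 0.27 and no longer passed the test (edgeR adjusted p = 0.0574).

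The atypical repressors E2f7 and E2f8, which switch E2F targets off again later in S phase, were near the limit of counting without ATV:4D9. E2f7 was at 0.233, 0.391, 0.409 and 0.812 CPM in WT mice given ATV:ISO, on 4 to 23 UMIs per mouse, and at 7.74, 7.79, 11.04 and 8.83 CPM with ATV:4D9. In AppSAA mice E2f7 was at 0.444, 0.534, 0.698 and 0.553 CPM with ATV:ISO, at 0.327, 0.523, 0.496 and 1.27 CPM with 4D9 and at 5.32, 6.51, 4.74 and 7.62 CPM with ATV:4D9. The groups without ATV:4D9 overlapped each other, and all mice given ATV:4D9 lay above them. Its log2 fold change was 4.28 (SE 0.304, edgeR adjusted p = 2.35e-10) in WT and 3.49 (SE 0.262, edgeR adjusted p = 9.66e-10) in AppSAA mice.

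E2f8 stood at 0.933, 1.46, 1.28 and 1.17 CPM in WT mice given ATV:ISO and at 18.5, 17.3, 18.4 and 17.8 CPM in those given ATV:4D9. In AppSAA mice E2f8 was at 1.58, 1.60, 1.80 and 1.54 CPM with ATV:ISO, 1.24, 1.496, 1.41 and 2.70 CPM with 4D9 and 11, 14.6, 11.1 and 15.2 CPM with ATV:4D9. The WT mice given ATV:4D9 lay close together and above all others, and WT mice given ATV:ISO lay below all AppSAA mice given ATV:ISO. Its log2 fold change was 4.01 (SE 0.184, edgeR adjusted p = 2.61e-13) in WT and 3.06 (SE 0.16, edgeR adjusted p = 3.33e-12) in AppSAA mice. The promoter of E2f7 (chr10:110745189-110745488, plus strand) held an E2F word 198 bases before the start, while the window of E2f8 held none of the words.
E2f7: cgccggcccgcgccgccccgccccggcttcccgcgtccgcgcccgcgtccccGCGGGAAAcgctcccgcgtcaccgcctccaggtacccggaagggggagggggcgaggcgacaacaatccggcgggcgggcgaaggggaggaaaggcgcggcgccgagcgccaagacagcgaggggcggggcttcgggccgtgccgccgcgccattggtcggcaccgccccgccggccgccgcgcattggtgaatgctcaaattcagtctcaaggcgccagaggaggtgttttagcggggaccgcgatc

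The pocket proteins moved in different directions. Rbl1, which encodes p107 and is a known E2F target, was measured at 12.7, 15.1, 16.8 and 18.9 CPM in WT mice given ATV:ISO and at 51.2, 60.9, 62.5 and 57.3 CPM with ATV:4D9. In AppSAA mice Rbl1 was at 11.6, 12.8, 14.7 and 14.04 CPM with ATV:ISO, 11.2, 14.8, 13.97 and 15.4 CPM with 4D9 and 38.5, 42.0, 40.5 and 46.3 CPM with ATV:4D9. The 2 ATV:4D9 groups lay above all others and apart from each other. Rbl1 rose by 1.98 on the log2 scale (SE 0.088, edgeR adjusted p = 1.51e-13) in WT and 1.72 (SE 0.086, edgeR adjusted p = 1.51e-12) in AppSAA mice.

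Rbl2, which encodes p130, the pocket protein most abundant in quiescent cells, was at 27.9, 35.3, 41.5 and 39.5 CPM in WT mice given ATV:ISO and at 17.1, 23.2, 21.1 and 21.8 CPM with ATV:4D9. In AppSAA mice Rbl2 was at 23.8, 28.6, 30.0 and 28.3 CPM with ATV:ISO, 22.6, 26.5, 31.7 and 29.5 CPM with 4D9 and 12.9, 21.3, 19.4 and 21.2 CPM with ATV:4D9. Within each genotype the ATV:4D9 mice lay below the ATV:ISO mice, while between genotypes the neighbouring groups overlapped. For Rbl2 the log2 fold change was -0.68 (SE 0.115, edgeR adjusted p = 3.35e-05) in WT and -0.51 (SE 0.113, edgeR adjusted p = 0.00083) in AppSAA mice.

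Rb1, which encodes pRB, was at 44.4, 51.0, 48.1 and 52.8 CPM in WT mice given ATV:ISO and at 29.2, 41.7, 38.1 and 38.5 CPM with ATV:4D9. In AppSAA mice Rb1 was at 32.6, 37.8, 36.4 and 37.3 CPM with ATV:ISO, 31.3, 37.9, 37.2 and 39.5 CPM with 4D9 and 24.3, 33.5, 30.6 and 33.5 CPM with ATV:4D9. The WT groups did not overlap and the AppSAA groups did, and in every group the mouse of pool 1 had the lowest level of both Rb1 and Rbl2. For Rb1 the log2 fold change was -0.30 (SE 0.085, edgeR adjusted p = 0.00416) in WT and -0.18 in AppSAA mice (95% interval -0.36 to -0.0025, edgeR adjusted p = 0.0793). With the pool as a block the AppSAA difference passed the test at the same size (-0.18, edgeR adjusted p = 0.000612), beside 70.7% of all genes. The genes Rcbtb2 and Lpar6 overlap Rb1 and Aktip overlaps Rbl2, all on the opposite strand, and whether counting used strand is not given in the sources used here.

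The falls of Rb1 and Rbl2 were measured relative to all other RNA, and UMIs per cell did not show them. Rb1 gave 424 ± 62.4 UMIs per 1000 cells (SD, n = 4) in WT mice given ATV:ISO and 619 ± 113 with ATV:4D9, and was higher with ATV:4D9 in 4 of 4 pools. Rbl2 gave 313 ± 73.3 and 350 ± 58.7 UMIs per 1000 cells in WT mice, and 320 ± 51.6 and 318 ± 62.9 in AppSAA mice given ATV:ISO and ATV:4D9. Per cell, Rbl2 was higher with ATV:4D9 in 4 of 4 pools in WT and in 2 of 4 in AppSAA mice, while E2f1 gave 36.2 times as many UMIs per cell in WT and 13.2 times as many in AppSAA mice. The median number of UMIs per cell was also higher in the ATV:4D9 groups, and the part of this in the values per cell was not tested.

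The pocket protein promoters are shown for the pair that moved apart. The window of Rbl1 (chr2:157204485-157204784, minus strand) held an E2F word 18 bases before the start, and that of Rbl2 (chr8:91069807-91070106, plus strand) held none of the words.
Rbl1: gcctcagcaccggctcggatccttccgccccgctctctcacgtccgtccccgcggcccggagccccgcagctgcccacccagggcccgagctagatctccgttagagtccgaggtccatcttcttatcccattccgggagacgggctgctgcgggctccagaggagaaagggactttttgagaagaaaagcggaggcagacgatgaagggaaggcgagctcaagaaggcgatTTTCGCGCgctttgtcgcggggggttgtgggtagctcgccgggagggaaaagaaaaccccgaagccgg
Rbl2: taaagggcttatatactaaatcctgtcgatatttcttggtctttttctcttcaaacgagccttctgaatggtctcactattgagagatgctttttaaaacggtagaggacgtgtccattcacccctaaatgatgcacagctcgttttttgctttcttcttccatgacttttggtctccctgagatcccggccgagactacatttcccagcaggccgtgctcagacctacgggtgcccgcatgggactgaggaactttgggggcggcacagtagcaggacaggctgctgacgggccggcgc
No match says only that these letters were not in this window.

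**Figure D2:**
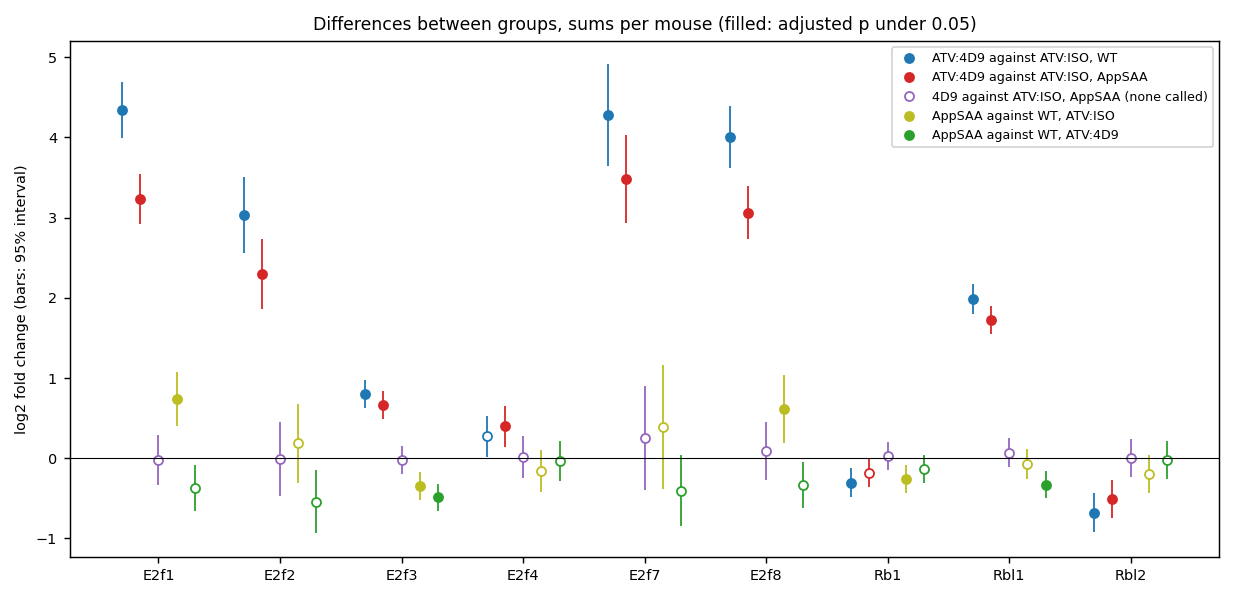
Log2 fold change of each member (vertical axis, bars: 95% interval) in 5 comparisons of sums per mouse, filled where the edgeR adjusted p was under 0.05. The ATV:4D9 comparisons ran from 4.34 (E2f1) to -0.68 (Rbl2) in WT mice, and the 9 values for 4D9 against ATV:ISO lay between -0.03 and 0.25, all open.

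4D9 without the transport vehicle was compared with ATV:ISO in AppSAA mice, with the same ATV:ISO mice as in the comparison above, so that both share their controls. None of the 9 members passed the test, none had an unadjusted p under 0.05, and none was separated between the groups, beside 0% of genes called and 0.654% not overlapping. DESeq2 called none of the members and 1 gene in all. The members' median log2 fold change was 0.02, and the 95% intervals were -0.34 to 0.29 for E2f1, -0.20 to 0.15 for E2f3, -0.11 to 0.25 for Rbl1 and -0.24 to 0.24 for Rbl2. For the less abundant E2f7 the interval was wider, from -0.39 to 0.90. The comparison of ATV:4D9 with 4D9, which shares its ATV:4D9 mice with the one against ATV:ISO, passed the test for all 9 members, 7 higher and 2 lower with ATV:4D9, beside 54.3% of genes called (27.6% higher and 26.7% lower). The log2 fold change of ATV:4D9 against 4D9 was 3.26 for E2f1 (SE 0.154, edgeR adjusted p = 7.73e-13), 2.97 for E2f8, 1.66 for Rbl1 (SE 0.086) and -0.51 for Rbl2 (SE 0.114). Rb1 was just past the threshold here (-0.20, edgeR adjusted p = 0.0478) and was not called without the filter (edgeR adjusted p = 0.0953), with cells of 1000 to 25000 UMIs (0.132) or when any of 6 of the 8 mice was left out, with adjusted p up to 0.167. E2f4 (0.38, edgeR adjusted p = 0.0129) lost this call without pool 1 of the ATV:4D9 mice (0.25, 0.0756), which left 7 members called.

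The AppSAA and WT genotypes were compared under each treatment. With ATV:ISO, E2f1 (0.74, SE 0.162, edgeR adjusted p = 0.00165) and E2f8 (0.61, SE 0.205, edgeR adjusted p = 0.0302) were higher in AppSAA mice and E2f3 (-0.35, SE 0.084, edgeR adjusted p = 0.00331) and Rb1 (-0.26, SE 0.085, edgeR adjusted p = 0.0273) were lower, 4 of 9 members beside 28.2% of all genes. E2f8 and Rb1 each lost the call when any of 5 of the 8 mice was left out (adjusted p up to 0.0867 for E2f8 and 0.0838 for Rb1), and the number of members called was 2 without pool 4 of the WT mice and 2 without pool 3 of the AppSAA mice. Restricting the cells to 1000 to 25000 UMIs left 2 members called, with E2f8 at 0.25 (edgeR adjusted p = 0.487) and Rb1 at -0.22 (0.0787). E2f8 was not called by limma-voom, the tool the study used on sums per mouse (0.60, limma-voom adjusted p = 0.0982), and Rb1 was not called without the filter (-0.21, edgeR adjusted p = 0.102). With the pool as a block, E2f4 (-0.16, edgeR adjusted p = 0.00692) and Rbl2 (-0.19, edgeR adjusted p = 0.0128) were called as well, beside 51% of all genes.

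With ATV:4D9, E2f3 (-0.49, SE 0.081, edgeR adjusted p = 0.000309) and Rbl1 (-0.33, SE 0.082, edgeR adjusted p = 0.00987) were lower in AppSAA than in WT mice, 2 of 9 members beside 11.8% of all genes. The remaining members were not called in this fit, with E2f1 at -0.37 (edgeR adjusted p = 0.0863), E2f2 at -0.54 (0.0722), E2f8 at -0.34 (0.131) and E2f4 at -0.04 (0.923). In the fit blocked on pool, 6 members were called beside 31.4% of all genes, with E2f1 (-0.39, edgeR adjusted p = 0.000642), E2f2 (-0.56, 0.000705), E2f8 (-0.34, 0.0219) and Rb1 (-0.14, 0.0146) added. By limma-voom and with cells of 1000 to 25000 UMIs, E2f1, E2f2 and E2f8 were called as well (limma-voom adjusted p of 0.044, 0.0126 and 0.026). These settings called 1872 and 2071 of all genes, against 1661 in the main fit.

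The difference between genotypes in the response to ATV:4D9 was tested as an interaction, which uses the ATV:ISO mice of both genotypes. E2f1 (-1.11, SE 0.212, edgeR adjusted p = 0.00184) and E2f8 (-0.95, SE 0.247, edgeR adjusted p = 0.0181) rose less in AppSAA than in WT mice, 2 of 9 members beside 9.14% of all genes. No member was called as responding more in AppSAA mice, where E2f4 had an interaction of 0.12 (95% interval -0.24 to 0.49, edgeR adjusted p = 0.745). For E2f2 the interaction was -0.73 (95% interval -1.36 to -0.10, edgeR adjusted p = 0.155), for E2f7 -0.79 (-1.68 to 0.10), for Rbl1 -0.26 (-0.51 to -0.01, edgeR adjusted p = 0.21) and for Rbl2 0.17 (-0.17 to 0.51). When single mice were left out, the E2f7 interaction ran from -1.27 (without pool 4 of the WT mice given ATV:ISO) to -0.63 and that of Rbl2 from 0.08 to 0.28 (without pools 4 and 1 of the AppSAA mice given ATV:4D9), none of them called. With the pool as a block, E2f2 (-0.76, edgeR adjusted p = 0.00889) and Rbl1 (-0.25, 0.0358) also passed, beside 30.5% of all genes. With cells of 1000 to 25000 UMIs, E2f8 did not (-0.74, edgeR adjusted p = 0.117).

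The other genes of the pathway were taken from lists of textbook members, chosen with earlier results of these data known. Of the partners and remaining E2Fs, Tfdp1, which encodes the DP1 subunit that pairs with E2F proteins, was higher by 2.40 in WT and 1.99 in AppSAA mice with ATV:4D9. Tfdp2, which encodes another such subunit, was higher by 0.74 and 0.35. E2f6, a repressor independent of pocket proteins, was higher by 1.78 and 1.25, and E2f5, the close relative of E2f4, had log2 fold changes of -0.68 and -0.19. In this list of 4 genes, 3 were higher and 1 lower in each genotype. These counts and those of the lists that follow stand beside 30.8% of all genes called higher and 32.5% called lower with ATV:4D9 in WT mice, and 27.9% and 27.1% in AppSAA mice. The MuvB core forms the DREAM complex with p130 and E2F4 in quiescence and later binds B-Myb (Mybl2) and FoxM1 instead, and of 7 genes of the core and these later partners 5 were higher and none lower. Mybl2 rose by 4.02 and 3.18, Foxm1 by 2.72 and 2.18 and Lin9 by 1.07 and 0.80, while Lin37 stood at -0.06 (edgeR adjusted p = 0.712) and 0.02.

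All 8 cyclins and kinases that phosphorylate pocket proteins were higher with ATV:4D9 in each genotype. The largest differences were those of the cyclin E genes, Ccne1 (4.85 in WT, 3.96 in AppSAA) and Ccne2 (4.83 and 4.01). Their kinase Cdk2 was higher by 1.56 and 1.16, and the smallest difference was that of Cdk6 (1.05 and 0.68). Of 7 CDK inhibitors, 4 were higher and 3 lower in each genotype. Cdkn2a, which encodes p16 and p19ARF, was higher by 2.59 in WT and 0.48 in AppSAA mice, Cdkn2c (2.04 and 0.90) and Cdkn1a, which encodes p21 (1.86 and 1.37), were higher too, and Cdkn1c, which encodes p57, had values of -2.09 and -1.28. With ATV:ISO, 4 of the 7 inhibitors were higher and 1 was lower in AppSAA than in WT mice, beside 14.4% and 13.7% of all genes. Cdkn2a was higher there by 2.33 (edgeR adjusted p = 2.85e-09), and Cdkn1c was lower (-0.57, edgeR adjusted p = 0.00213).

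All 38 E2F target genes of the G1/S transition were higher with ATV:4D9 in each genotype, with a median log2 fold change of 3.73 in WT and 3.06 in AppSAA mice. Hells (5.08 and 4.00), Dtl (5.04 and 4.01) and Ung (4.97 and 3.57) had the largest values in WT mice. All 25 late cell cycle genes repressed by DREAM were higher as well, with medians of 3.25 and 2.16, Bub1 (4.25 and 3.10), Top2a (3.91 and 2.91) and Mki67 (3.79 and 2.70) leading in WT mice and Cenpa (0.72 and 0.48) last. No gene of any of the 6 lists was called for 4D9 against ATV:ISO by edgeR. None of the 89 genes had an unadjusted edgeR p under 0.05. The 25 late genes had a median log2 fold change of 0.27 in this comparison, against 0.0012 over all genes. The medians of the other lists lay between -0.03 and 0.02. Whether the late genes differed as a set between 4D9 and ATV:ISO was not tested.

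Between genotypes with ATV:ISO, 17 of 38 G1/S genes and 23 of 25 late genes were higher in AppSAA mice, with medians of 0.34 and 0.87, beside 14.4% of all genes called higher. With ATV:4D9, 22 of 38 G1/S genes were lower in AppSAA mice (median -0.38), beside 3.98% of all genes called lower. None of the 25 late genes was called by edgeR in either direction (median -0.13), and 1 of them had an unadjusted p under 0.05. This was Cenpa, higher in AppSAA mice by 0.52 (edgeR adjusted p = 0.0502). In the interaction 29 of 38 G1/S and 13 of 25 late genes were called, all as responding less in AppSAA mice, beside 5.35% of all genes called in that direction. The 2 lists were not tested against each other. Their counts come from the fit without the pool as a block, and whether they change with it was not tested. With the block, calls rose from 11.8% to 31.4% of all genes with ATV:4D9 and from 9.14% to 30.5% for the interaction.

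The levels of the members were then followed over the deposited clusters, which are numbered and unnamed in the deposit. The clusters were made from the expression of the same cells, so these levels are a description without a test, and the clusters hold different mixes of the groups. Coarse cluster 4 had the highest mean level of E2f1 (99.6 ± 51.3 CPM, SD over 16 mice with at least 20 cells), E2f2 (32.7 ± 10.7), E2f7 (18.2 ± 5.15), E2f8 (44.7 ± 12.04) and Rbl1 (68.2 ± 9.79). In coarse clusters 0, 1 and 3, E2f1 averaged 6.40 to 7.39 CPM and E2f8 0.463 to 0.715 CPM. Coarse cluster 2 held E2f1 at 49.4 ± 19.9 CPM (20 mice) but E2f8 at only 3.21 ± 3.05 CPM. The means of E2f1 over all mice hide differences between groups, as in AppSAA mice given ATV:ISO E2f1 averaged 46.5 CPM in coarse cluster 4 and 48.9 CPM in coarse cluster 2. In coarse cluster 5 E2f1 averaged 10.8 CPM in AppSAA mice given ATV:ISO, 8.08 CPM in those given 4D9 and 38.3 and 71.9 CPM in AppSAA and WT mice given ATV:4D9, and E2f8 averaged 0.460, 1.21, 3.07 and 7.21 CPM. In coarse cluster 0 the group means lay between 40.5 and 52.9 CPM for Rb1 and between 35.4 and 38.5 CPM for Rbl2. In coarse cluster 4 Rbl2 averaged 36.9 and 37.1 CPM in AppSAA mice given ATV:ISO and 4D9, and 21.4 and 19.5 CPM in WT and AppSAA mice given ATV:4D9. Over all mice E2f4 ranged from 21.3 (cluster 1) to 37.3 CPM (clusters 2 and 4).

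The cells of coarse cluster 4 fell mainly into clusters 4 and 7 of the finer clustering (resolution 0.4, 9 clusters). In finer cluster 4 the 38 G1/S genes summed to 5446 ± 107 CPM and the 25 late genes to 823 ± 70.7 CPM (8 mice), and in finer cluster 7 they summed to 4107 ± 1647 and 5490 ± 1411 CPM (16 mice). Only the 8 mice given ATV:4D9 had at least 20 cells in finer cluster 4. In every one of these 8 mice E2f1 and E2f3 were higher in finer cluster 4 than in 7, and E2f2, E2f7, E2f8, Rbl1 and Rbl2 were higher in finer cluster 7. In the 4 WT mice E2f1 averaged 158 ± 13.4 CPM in finer cluster 4 and 130.1 ± 12.01 CPM in finer cluster 7, E2f7 11.7 ± 1.14 and 37.6 ± 6.38 CPM, and E2f8 24.1 ± 0.481 and 71.9 ± 7.10 CPM. In the same 4 WT mice Rbl2 averaged 27.5 ± 4.12 CPM in finer cluster 7, below the 36.2 ± 7.82 CPM of finer cluster 0, near the 26.0 ± 2.47 CPM of finer cluster 2 and above the 20.7 ± 3.18, 11.8 ± 2.22 and 10.7 ± 3.4 CPM of finer clusters 1, 5 and 8. In the AppSAA mice given ATV:4D9 Rbl2 averaged 23.5 ± 4.90 CPM in finer cluster 7, below the 32.6 ± 11.5, 33.6 ± 3.39 and 28.8 ± 3.15 CPM of finer clusters 0, 2 and 3 and above the 17.8 ± 3.93, 14.8 ± 3.38 and 10.49 ± 3.89 CPM of finer clusters 1, 5 and 8.

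**Figure D3:**
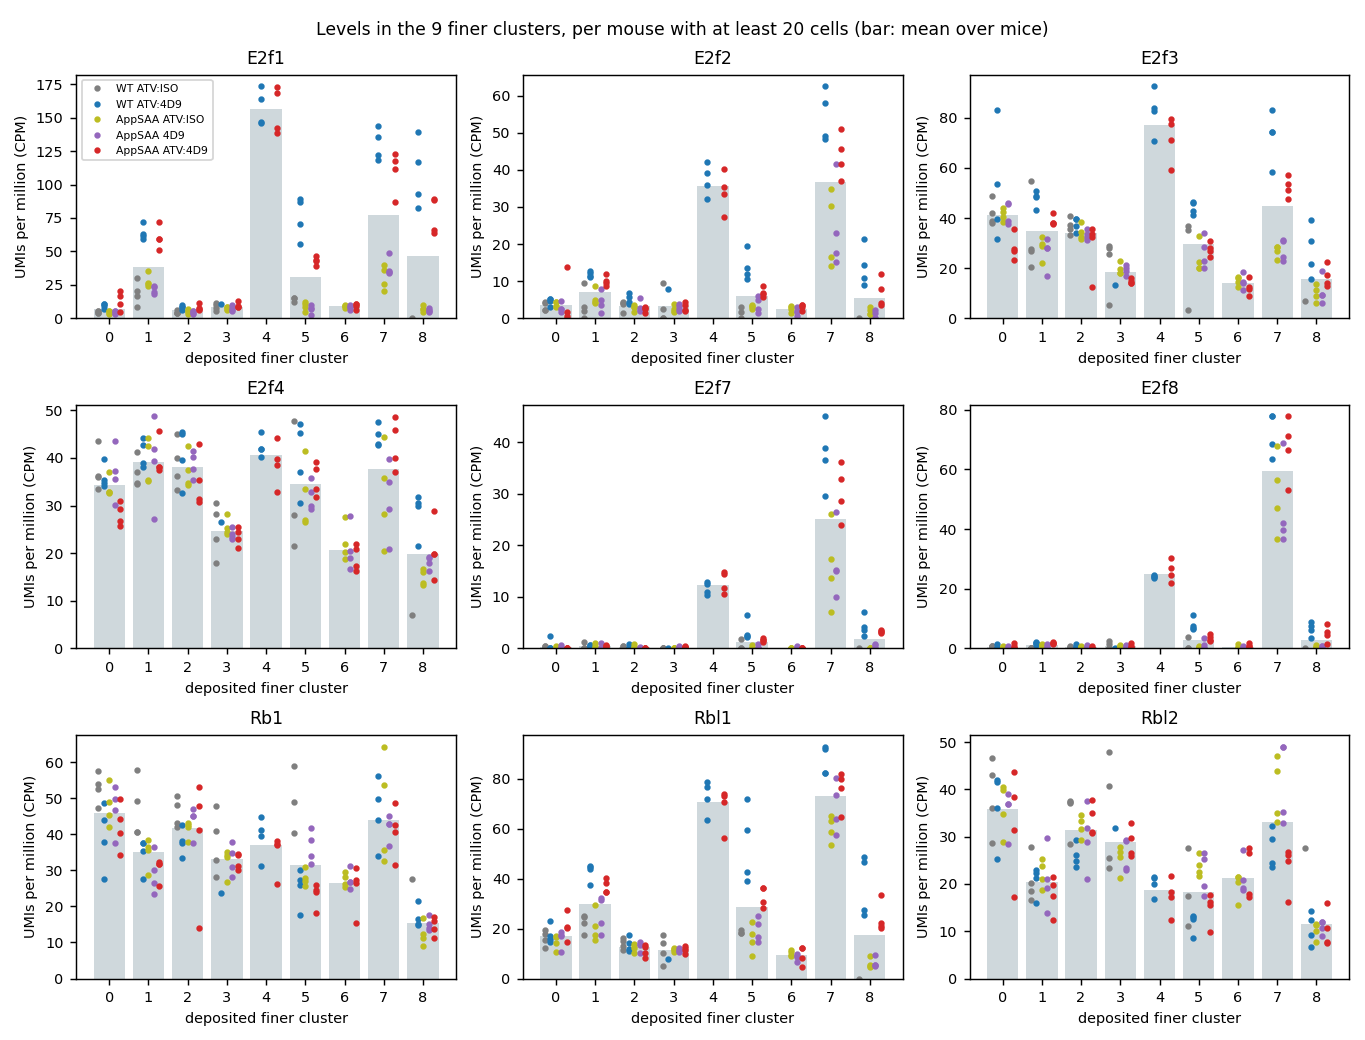
Level of each member in CPM (vertical axis) in the 9 finer clusters (horizontal axis), one point per mouse with at least 20 cells and a bar for the mean over mice. E2f1 and E2f3 averaged most in finer cluster 4 (157 and 77.2 CPM), where only mice given ATV:4D9 had 20 cells, and E2f7 and E2f8 in finer cluster 7 (25.2 and 59.4 CPM).

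The share of each gene's UMIs by cluster shows which cells carried the sums. In WT mice given ATV:4D9, coarse cluster 4 held 92.4% ± 0.915 (SD, n = 4) of the E2f8 UMIs, 65.0% ± 3.34 of E2f1, 58.8% ± 3.4 of Rbl1 and 45.8% ± 4.42 of Rbl2, beside 44.4% ± 4.35 of all UMIs. Coarse cluster 2 held a further 31.4% ± 3.81 of E2f1 but 5.68% ± 1.05 of E2f8, beside 46.3% ± 3.95 of all UMIs. In AppSAA mice given ATV:4D9, coarse cluster 4 held 87.4% ± 1.59 of E2f8, 53.0% ± 4.95 of E2f1 and 28.2% ± 2.49 of Rbl2, beside 27.3% ± 3.92 of all UMIs. E2f8 UMIs thus lay mostly in coarse cluster 4, E2f1 UMIs also in coarse cluster 2, and the share of Rbl2 was close to that of all UMIs.

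**Figure D4:**
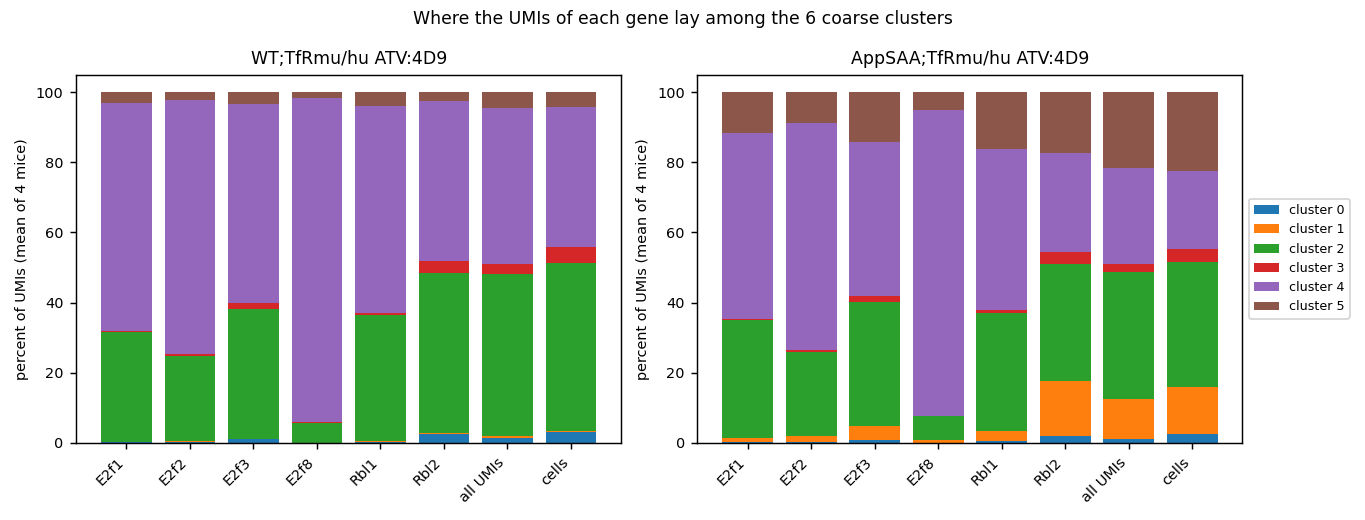
Percent of the UMIs of 6 members, of all UMIs and of cells (horizontal axis) that lay in each of the 6 coarse clusters (colours, vertical axis: mean percent of 4 mice), for WT (left) and AppSAA mice (right) given ATV:4D9. Coarse cluster 4 took 92.4% of E2f8 in WT mice against 44.4% of all UMIs, and 87.4% against 27.3% in AppSAA mice.

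The treatment comparisons, the genotype comparisons and the interaction were repeated within each coarse cluster. They used mice with at least 20 cells in it and were made where each group had 3 such mice or more. Of 255 tests of members, 30 passed (11.8%, beside 4.52% of all gene tests in the same 33 comparisons, which ran from 0% to 26.9%), 22 with a higher and 8 with a lower level in the first-named group, and none of the 30 was for 4D9 against ATV:ISO, where 2 of 48 edgeR tests had an unadjusted p under 0.05 and 0% of all genes were called in each cluster. With the pool as a block 45 passed (17.6%, beside 8.65% of all gene tests), 15 of them in addition and none of the 30 lost. The genotype calls among the 30 were E2f1, E2f2, E2f3, E2f8 and Rbl1 in coarse cluster 5 with ATV:4D9, all lower in AppSAA mice. The remaining lower calls came from treatment comparisons. They were Rbl2 in coarse cluster 4 against ATV:ISO and 4D9, and Rb1 in coarse cluster 5 against 4D9. The 30 include E2f7 and E2f8 for ATV:4D9 against ATV:ISO in coarse cluster 5. There both passed the filter on low counts through mice given ATV:4D9, as described below. In coarse cluster 2, E2f1 was at 26.7, 21.4, 12.7 and 36.4 CPM in WT mice given ATV:ISO, on 23 to 42 cells each, and at 78.5, 72.8, 64.9 and 66.4 CPM in those given ATV:4D9. The groups did not overlap, and the log2 fold change was 1.46 (SE 0.255, edgeR adjusted p = 0.000884), beside 5.88% of genes called. There E2f2 (1.83, edgeR adjusted p = 0.0276) and Rbl1 (0.62, 0.0214) were also higher, calls that were lost without any 1 of pools 1 to 3 of the WT mice given ATV:ISO, and for Rbl1 without pool 4 (adjusted p up to 0.0967 and 0.0939). E2f2 had 40 to 126 UMIs in each WT mouse given ATV:ISO, and coarse cluster 2 held 0% to 3.17% of them. The E2f2 call therefore rests on few UMIs in these mice, none in at least 1 of them, and gives little support. In AppSAA mice the differences in coarse cluster 2 were 0.57 for E2f1 (edgeR adjusted p = 0.0247) and 0.64 for Rbl1 (0.000311), beside 13.2%. The E2f1 call there was lost without pool 3 (0.35, edgeR adjusted p = 0.219) or pool 4 (0.0612) of the ATV:ISO mice, or pool 1 of the ATV:4D9 mice (0.0731). Against 4D9, E2f1 and Rbl1 were called higher in coarse cluster 2, beside 13.4% of genes. Both calls held in 20 of 20 cases when single mice were left out. Of the cells of finer cluster 4, 13.8% lay in coarse cluster 2. Finer cluster 4 held 57 cells of AppSAA mice given ATV:ISO and 2739 of those given ATV:4D9. Whether the make-up of coarse cluster 2 moved with the treatment was not tested.

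The fit blocked on pool also called E2f3 in coarse cluster 2 of AppSAA mice against ATV:ISO (0.37, edgeR adjusted p = 0.0258), and E2f2 (0.82, 0.0208), E2f3 (0.40, 0.0263), E2f4 (0.36, 0.0299) and Rb1 (0.33, 0.0477) against 4D9. These calls stood beside 24.8% of all genes called against ATV:ISO and 23.1% against 4D9 in the blocked fit. In coarse cluster 0 the blocked fit called E2f1 (1.18, edgeR adjusted p = 0.00569) and Rb1 (-0.40, 0.0289) in WT mice, and in coarse cluster 1 it called E2f3 as lower with ATV:4D9 than with ATV:ISO (-0.34, 0.00931) and 4D9 (-0.30, 0.0278) in AppSAA mice. Of all genes, 8.94% were called in that comparison of coarse cluster 0. In coarse cluster 1 the shares were 7.25% against ATV:ISO and 6.18% against 4D9.

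In coarse cluster 3, E2f1 was the only member called without the block, at 0.89 in WT mice (edgeR adjusted p = 0.0463, beside 6.17% of genes), 1.01 in AppSAA mice (0.032, 4.33%) and 1.21 against 4D9 (0.0151, 3.52%). When single mice were left out, the WT call held in 8 of 20 cases, the AppSAA call in 15 and the call against 4D9 in 18, with adjusted p up to 0.164, 0.18 and 0.102. When blocked on pool, the fit also called Rb1 (-0.30, edgeR adjusted p = 0.0375) and Rbl2 (-0.36, 0.0302) in WT mice, beside 17.5% of all genes. E2f7 and E2f8 did not pass the filter on low counts in coarse clusters 0, 2 and 3.

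In coarse cluster 4 the WT comparison could not be made, as the 4 WT mice given ATV:ISO had 35 such cells in all. In AppSAA mice E2f1 (1.59, SE 0.165), E2f3 (1.07, SE 0.135) and E2f2 (0.64, edgeR adjusted p = 0.0218) were higher and Rbl2 was lower (-0.99, SE 0.172) with ATV:4D9 than with ATV:ISO, 4 of 9 members beside 24.5% of genes, and E2f2 lost the call without pool 2 or 4 of the ATV:ISO mice or pool 4 of the ATV:4D9 mice (adjusted p up to 0.144), its value running from 0.49 without pool 4 to 1.05 without pool 3 of the ATV:ISO mice. E2f7 (0.16, 95% interval -0.32 to 0.64), E2f8 (-0.26, -0.63 to 0.12) and Rbl1 (0.29, edgeR adjusted p = 0.0657) were not called, of which Rbl1 passed with the pool as a block (0.30, 0.0271). The blocked fit called 30.1% of all genes there. Against 4D9, E2f1 and E2f3 were called higher and Rbl2 lower in coarse cluster 4, beside 22.1% of genes. When single mice were left out these calls held in 20 of 20 cases, with values of 1.28 to 1.45, 0.88 to 1.00 and -1.05 to -0.79. The make-up of this cluster moved with the treatment, since finer cluster 7 made up 79.7% to 88.7% of its cells in the AppSAA mice given ATV:ISO and 28.9% to 36.6% in those given ATV:4D9.

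The same test was then made within finer cluster 7 alone, an addition made after these values were seen. In finer cluster 7 the summed G1/S genes themselves ran from 2128 to 6246 CPM over 16 mice. Whether the mix of cells within finer cluster 7 moved with the treatment was not tested. E2f1 stood at 25.7, 36.1, 39.6 and 20.2 CPM in AppSAA mice given ATV:ISO, at 33.6, 34.9, 48.5 and 34.9 CPM with 4D9 and at 118, 123, 86.8 and 111 CPM with ATV:4D9, so the ATV:4D9 mice lay apart from both. The log2 fold change against ATV:ISO was 1.80 (SE 0.178, edgeR adjusted p = 1.69e-07), beside 22.7% of genes called, and against 4D9 it was 1.49 (1.5e-06), beside 20.7%. E2f3 was higher by 0.93 (edgeR adjusted p = 5.45e-05) and 0.88 (0.000123).

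Within finer cluster 7, Rbl2 was at 35.0, 43.9, 46.97 and 33.0 CPM with ATV:ISO, at 48.9, 33.0, 35.2 and 49.1 CPM with 4D9 and at 16.3, 26.8, 26.2 and 24.9 CPM with ATV:4D9. The ATV:4D9 mice were all below the others, with log2 fold changes of -0.83 against ATV:ISO (edgeR adjusted p = 0.00173) and -0.83 against 4D9 (0.00213). E2f2 (0.80, edgeR adjusted p = 0.0123) and E2f7 (0.72, 0.0363) were also called against ATV:ISO, and E2f2 lost the call without pool 4 of the ATV:ISO mice (0.0924) and E2f7 without pool 1, 2 or 4 of the ATV:ISO mice or pool 2 or 4 of the ATV:4D9 mice (adjusted p up to 0.163), and the value of E2f7 rose to 1.15 without pool 3 of the ATV:ISO mice. E2f8 (0.42, 95% interval 0.06 to 0.78, edgeR adjusted p = 0.0862) and Rbl1 (0.29, 0.05 to 0.54, 0.0754) were not, and both passed with the pool as a block (edgeR adjusted p of 0.0475 and 0.0461), beside 28.4% of all genes. Against 4D9, E2f2 (0.70, edgeR adjusted p = 0.03035) and E2f7 (0.79, 0.0299) were called. These calls held in 16 and 15 of 20 cases when single mice were left out. The ATV:ISO and 4D9 mice had 21 to 60 cells each in finer cluster 7, and none of these comparisons could be made with at least 50 cells.

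In coarse cluster 5, which was most frequent in AppSAA mice given ATV:4D9 (22.4% ± 4.26 of cells), E2f1 was at 17.0, 8.01, 4.62 and 13.5 CPM in AppSAA mice given ATV:ISO, at 12.9, 7.76, 2.87 and 8.78 CPM with 4D9 and at 41.8, 38.9, 34.1 and 38.6 CPM with ATV:4D9. The ATV:4D9 mice again lay apart, with a log2 fold change of 2.29 (SE 0.264) against ATV:ISO, beside 26.9% of genes called, and 2.44 (SE 0.344) against 4D9, beside 14.5%. Rbl1 was higher by 0.87 (edgeR adjusted p = 0.00178) against ATV:ISO and by 0.81 (0.0247) against 4D9. For E2f7 and E2f8 the ATV:ISO mice held only 1 and 3 UMIs in this cluster against 79 and 181 in the ATV:4D9 mice. Relative to all UMIs this is a ratio of 8.26 (95% counting interval 1.44 to 330.4) and 6.31 (2.12 to 30.9). The counting interval pools the UMIs of the mice and leaves out the spread between mice. Both genes were called by edgeR, but they passed the filter on low counts through mice given ATV:4D9, so these calls give no support. When single mice were left out, E2f7 ran from 2.70 to 5.77 and kept its call in 13 of 18 cases, and E2f8 in 19 of 20. E2f2 was also called (1.05 to 1.25 without single mice, held in 19 of 20 cases). Rb1 was lower with ATV:4D9 than with 4D9 (-0.63, edgeR adjusted p = 0.0114). Without pool 4 of the 4D9 mice the Rb1 call was lost (0.0822), and without any 1 of the 4 mice given 4D9 the Rbl1 call against 4D9 was lost (adjusted p up to 0.0776).

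Between the genotypes, 5 of 9 members were called within coarse cluster 5, beside 6.33% of genes. In mice given ATV:4D9, E2f1 was at 84.1, 62.0, 85.4 and 55.9 CPM in coarse cluster 5 of WT mice, all above the AppSAA mice, with a log2 difference of -0.83 (SE 0.165, edgeR adjusted p = 0.00234). E2f2 (-0.95), E2f3 (-0.65), E2f8 (-1.11) and Rbl1 (-0.63) were lower in AppSAA mice there too, of which E2f8 and Rbl1 rested on WT pool 3, without which they were not called (adjusted p of 0.0633 and 0.0646). In coarse clusters 2, 3 and 4 edgeR called no member between the genotypes after ATV:4D9, with an unadjusted p under 0.05 in 3 of 23 tests, beside 2.07%, 0.163% and 2.76% of genes called. With the pool as a block, E2f3 was lower in AppSAA mice in coarse clusters 2 (-0.25, edgeR adjusted p = 0.033) and 4 (-0.21, 0.0157), and Rbl2 was higher in coarse cluster 5 (0.51, 0.0102). The blocked fits called 7.38%, 9.79% and 14.5% of all genes in coarse clusters 2, 4 and 5. Within finer cluster 4, E2f1 differed by 0.06 (95% interval -0.19 to 0.31), E2f8 by 0.18 (-0.02 to 0.38) and Rbl2 by -0.14 (-0.41 to 0.12), none called by edgeR beside 1.49% of genes and none with an unadjusted p under 0.05, and within finer cluster 7 E2f3 alone was called (-0.38, edgeR adjusted p = 0.043, beside 1.78%), a call that held in 11 of 20 cases when single mice were left out (adjusted p up to 0.239). The difference between clusters in these genotype contrasts was not tested.

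**Figure D5:**
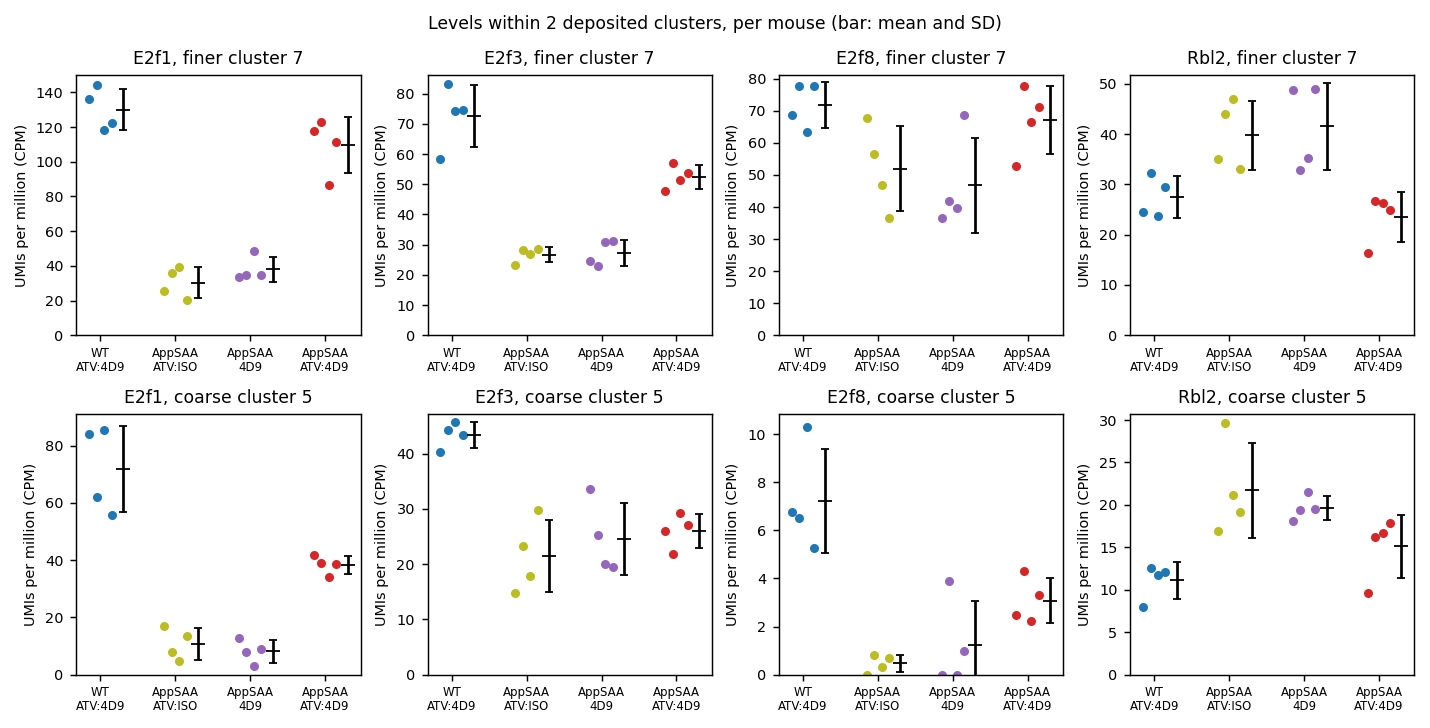
Level of E2f1, E2f3, E2f8 and Rbl2 in CPM (vertical axis) for each mouse with at least 20 cells, by group (horizontal axis), in finer cluster 7 (top) and coarse cluster 5 (bottom), with the mean and SD. E2f1 averaged 110 CPM with ATV:4D9 against 30.4 CPM with ATV:ISO in finer cluster 7 of AppSAA mice, while Rbl2 averaged 23.5 against 39.7 CPM.

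Over the 20 mice the members fell into patterns that the group means share. As a description over 20 mice of 5 groups, with treatment, pool and depth in common, Pearson's r of log2 CPM was 0.958 to 0.988 among E2f1, E2f2, E2f7, E2f8 and Rbl1, 0.876 between Rb1 and Rbl2, and -0.622 between Rbl1 and Rbl2. Among 9475 other genes with a mean of at least 5 CPM, the nearest to E2f1 were Dut, a nucleotide pool enzyme, and Gmnn, which encodes the replication licensing inhibitor geminin (r of 0.998 each). The nearest to E2f8 were Brca1, a DNA repair gene (0.995), and D430020J02Rik (0.994), to E2f7 Ulbp1 (0.991) and Ncapg2, a condensin subunit (0.990), and to Rbl1 the heterochromatin genes Cbx5 and Suv39h1 (0.994 each). For E2f2 they were Enkd1 (0.990) and the kinetochore gene Kntc1 (0.988), for E2f3 Rdx (0.976) and Tinf2 (0.974), and for E2f4 Mrpl10 (0.976) and Pak1ip1 (0.975). The nearest to Rb1 were Snx19 (0.978) and Gmip (0.976), and to Rbl2 Zfp318 (0.993) and Stau1 (0.992).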

How the data were processed

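Single-cell RNA libraries (10x 3′ kit) of CD11b+ brain cells were deposited as 4 pools, and the authors assigned cells to mice by CellPlex tags. The deposited values are raw UMI counts per gene and cell, made by the authors with Cell Ranger 6.1.1 on mm10, and the deposited annotation gives the mouse, group and Seurat cluster of each cell. Cell filters and doublet treatment are not given in the sources used here, and no doublet caller was run. Summed counts matched the deposited total in all 74758 cells.

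Sums of counts over the cells of a mouse, also by cluster (at least 20 cells), were tested with edgeR 4.0.16 (R 4.3.3; filterByExpr, TMM, quasi-likelihood test, Benjamini-Hochberg over all genes tested, threshold 0.05) in 1 fit of the 5 groups. Alternatives were RLE size factors, no filter, limma-voom (limma 3.58.1, the tool the study used on sums per mouse), DESeq2 1.42.0, the pool as a block, cells of 1000 to 25000 UMIs, at least 50 cells per sum and leaving out each mouse. Mice of 1 pool deviated together from their group means (correlation 0.227 to 0.709, 40 pairs, against -0.659 to 0.41 for 120 pairs across pools), and as the groups were spread evenly over pools, pairing by pool was taken to hold. The main fit nevertheless held no term for the pool, and the calls of the list genes come from that fit alone. The code was tested on simulated data. CPM are counts per 1000000 of the summed UMIs, without TMM scaling.

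The named genes were the 9 members, the 2 genes with the highest Pearson r to each over the mice, and in each list the 3 largest and the smallest log2 fold changes for ATV:4D9 in WT mice. Values of some genes that the rule or the marker lists name are not reported here. Members and lists were chosen with earlier results of these data known, and the tests within finer clusters were added after seeing the data. Depth differed between groups, as given above, and the UMI sums behind low values limit their precision.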

Additional observations from a re-analysis of the deposited data

Results flagged for a closer look

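In 3 of 45 groups of 4 mice 1 mouse stood apart from the other 3 by Dixon's test, which chance alone gives in about 1 of 20 groups. The highest E2f2 level among AppSAA mice given 4D9 was 5.26 CPM, and that among AppSAA mice given ATV:4D9 was 20.38 CPM, both in pool 4. The highest E2f4 level among AppSAA mice given ATV:4D9 was 42.17 CPM, in pool 1. The response to ATV:4D9 differed between the genotypes by an interaction term for E2f1 (-1.11 on the log2 scale, edgeR adjusted p = 0.00184) and for E2f8 (-0.947, edgeR adjusted p = 0.0181), smaller in AppSAA mice for both.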

How the results depend on the processing

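Of the 9 members, 8 to 9 were called for ATV:4D9 against ATV:ISO in WT mice under every alternative run and 7 to 9 in AppSAA mice, 7 to 9 against 4D9 in AppSAA mice, and none for 4D9 against ATV:ISO. Between genotypes with ATV:ISO the count of 4 was 2 with cells of 1000 to 25000 UMIs, 3 with limma-voom or without the filter, 6 with the pool as a block and 2 to 3 when single mice were left out. With ATV:4D9 the count of 2 was 5 with limma-voom, 6 with the pool as a block, 5 with cells of 1000 to 25000 UMIs and 2 to 3 when single mice were left out. Among all genes, 1661 were called there in the main fit, 1872 with limma-voom and 2071 with cells of 1000 to 25000 UMIs. For the interaction the count of 2 was 4 with the pool as a block and 1 with cells of 1000 to 25000 UMIs. Within coarse clusters the 30 calls became 17 with at least 50 cells per sum, where fewer comparisons could be fitted, 45 with the pool as a block and 24 to 31 when single mice were left out. Within finer clusters 11 of 45 tests of members were called (24.4%, beside 9.03% of all gene tests). With the pool as a block 13 were called (28.9%, beside 13.5% of all gene tests). The 11 calls became 0 with at least 50 cells, where AppSAA against WT alone could be fitted. When single mice were left out they became 7 to 12, with 7 without pool 4 of the AppSAA mice given ATV:4D9. Among the members, the pool as a block changed no call beyond those named in the report, and within coarse and finer clusters it added 15 and 2 member calls and lost none. The calls of the list genes were not examined with the block. With that block 51% of all genes were called between genotypes with ATV:ISO, 31.4% with ATV:4D9 and 30.5% for the interaction, against 28.2%, 11.8% and 9.14% without it. The cause of these changes was not tested.

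Some uncalled values near 0 changed sign. For 4D9 against ATV:ISO, E2f2 was 0.0145 with cells of 1000 to 25000 UMIs and Rbl2 0.0020 with limma-voom, and for AppSAA against WT with ATV:4D9, Rbl2 was 0.0160 with that range. When single mice were left out, the values for 4D9 ran from -0.1065 to 0.0715 (E2f1), -0.2996 to 0.1266 (E2f2), -0.0727 to 0.0191 (E2f3), -0.0667 to 0.1119 (E2f4), -0.2784 to 0.4142 (E2f7), -0.2093 to 0.2055 (E2f8), -0.0054 to 0.0734 (Rb1) and -0.0516 to 0.0522 (Rbl2). AppSAA against WT ran from -0.1361 to 0.0157 for Rbl1 with ATV:ISO, and from -0.167 to 0.0362 for E2f4 and -0.0812 to 0.0892 for Rbl2 with ATV:4D9, and the E2f4 interaction from -0.0063 to 0.218. Low counts limit E2f7 and E2f8 in the groups without ATV:4D9 and in coarse cluster 5, and E2f2 in coarse cluster 2 of WT mice given ATV:ISO.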
